A study of Homo sapiens with 3 samples.

Results

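The nuclear genes for the subunits of the oxidative phosphorylation complexes were taken from the gene tables by their symbols: protein-coding genes named as NDUF, SDH, UQCR, CYC1, COX4 to COX8 or ATP5 subunits. The rule found 88 of the 58243 genes, of which 39 belong by name to complex I, 4 to complex II, 10 to complex III, 17 to complex IV and 18 to complex V. A gene counted as measured with a mean of at least 50 reads over the 3 libraries, and 79 of the 88 genes passed. The 3 RNA-seq libraries came from cells labelled LoVo, a human colorectal carcinoma line, and all carried a doxycycline-inducible (Tet-On) hairpin RNA against HRD1, a ubiquitin ligase of the endoplasmic reticulum, which the gene SYVN1 encodes. Doxycycline (1 µg/ml), which switches the hairpin on, was present for 0, 3 or 5 days, with 1 library per time. The libraries differ both in HRD1 depletion and in time on doxycycline, and these cannot be told apart. No difference had a replicate check. Each ratio compares libraries rather than conditions, and the 95% intervals in brackets are exact but hold counting error alone.

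Oxidative phosphorylation makes ATP in the inner mitochondrial membrane. Complex I (NADH dehydrogenase) and complex II (succinate dehydrogenase) pass electrons to ubiquinone, complex III passes them on to cytochrome c, and complex IV (cytochrome c oxidase) passes them to oxygen. Complexes I, III and IV pump protons, and complex V (ATP synthase) uses the proton gradient. Most subunits are encoded in the nucleus and imported, a few hydrophobic ones in mitochondrial DNA, and nuclear respiratory factor NRF1, the ETS factor GABP and YY1 are known regulators of the nuclear subunit genes.

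Reads assigned to genes numbered 21308785 at day 0, 22068686 at day 3 and 25754188 at day 5. SYVN1 had 1212, 650 and 709 reads, and its normalised level was 54.3% of the day 0 level in the day 3 library and 48.2% in the day 5 library. The markers went partly against the label of an intestinal epithelial line, and whether the cells are LoVo was not tested. The epithelial markers EPCAM and CDH1 stayed at or below 0.742 TPM, the authors' length-corrected level, and the 5 intestinal markers CDX1, CDX2, VIL1, CDH17 and LGALS4 summed to 0, 0.119 and 1.07 TPM, while keratins KRT8, KRT18 and KRT19 were present at 137 to 728 TPM at day 0. Of the mesenchymal markers VIM had 4016, 4130 and 3588 TPM, THBS1 294, 194 and 205 TPM and FN1 28.96, 23.7 and 24.8 TPM. Red blood cell markers summed to 0, 1.57 and 11.4 TPM in the 3 libraries (AHSP had no reads), and of 8 liver markers ALB had 0, 0 and 114 reads and TTR 0, 6 and 101 reads, beside 19332, 17422 and 20571 reads of SERPINA1. Of the 9 muscle markers 8 stayed at or below 0.823 TPM and TNNT1 lay between 221.8 and 245.7 TPM. Of the 8 liver markers only SERPINA1 passed the read minimum, and its day 5 log2 ratio was -0.19 [-0.22, -0.16]. Where the reads of blood and liver markers came from was not tested, nor was their part in the day 5 differences.

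The 88 genes together made up 1.68%, 1.82% and 1.82% of all TPM in the day 0, day 3 and day 5 libraries. Complexes I, IV and V held similar shares, with 4903, 5439 and 5586 TPM for complex I, 4646, 5302 and 4948 TPM for complex IV and 4511, 4556 and 4522 TPM for complex V. Complex III held 2349, 2499 and 2682 TPM and complex II 416, 424 and 417 TPM. Per gene the levels spread widely. ATP5B, the catalytic beta subunit of the ATP synthase head, was the most abundant with 2110, 1980 and 1877 TPM. COX8A and COX6A1, small subunits of complex IV, followed with 1365, 1550 and 1416 TPM for COX8A and 1271, 1477 and 1208 TPM for COX6A1. The measured gene with the lowest TPM at day 0, though not the fewest reads, was ATP5S, a coupling factor that is no structural subunit. It had 9.18, 9.58 and 11.4 TPM. In complex I NDUFS5 reached 907, 1071 and 990 TPM and NDUFA3 9.90, 11.6 and 14.9 TPM.

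**Figure D1:**
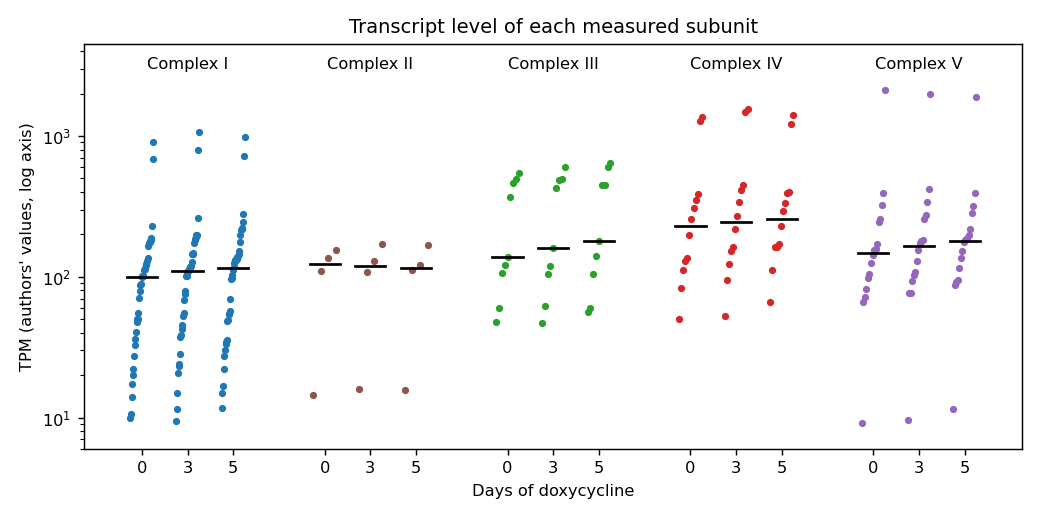
Level of each measured subunit in TPM (authors' values, log axis) in the day 0, day 3 and day 5 libraries, by complex; points are genes and bars are medians. Levels ran from ATP5S at 9.18 TPM to ATP5B at 2110 TPM at day 0, and the median was 100.0, 109 and 115 TPM for complex I and 139, 161 and 179.7 TPM for complex III, the complex whose medians differed most.

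The 9 genes below the read minimum were mostly tissue-restricted isoforms and gene copies. COX7A1, the muscle and heart isoform, had 25, 18 and 30 reads, and COX4I2, known from lung, had 2, 1 and 1. COX6B2, known from testis, had 0, 4 and 1 reads, UQCRHL, a copy of UQCRH, 1, 0 and 0, and NDUFA4L2, known as a hypoxia-induced relative of NDUFA4, 4, 6 and 6. COX6A2 (muscle and heart), COX8C, ATP5L2 and ATP5EP2 had no reads in the 3 libraries, which allows at most 0.139, 0.140 and 0.114 CPM, the normalised count per library size (from 3 counts). COX7B2, a relative of COX7B known mainly from testis, was the exception among these isoforms, with 578, 690 and 898 reads. Its level of 129, 153 and 162 TPM was above that of the common form COX7B, with 83.1, 94.1 and 112 TPM, in every library. In reads COX7B was above COX7B2 in every library, so the order depends on the length correction in TPM.

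In the day 3 library 77 of the 79 measured genes lay above day 0, where 52.0% of all 12593 measured genes did. Their median log2 ratio was 0.23, against 0.01 over all measured genes. The medians by complex were 0.23 for complex I, 0.18 for complex II, 0.16 for complex III, 0.29 for complex IV and 0.22 for complex V. The differences were small: 33 genes were at least 1.2-fold higher with an interval excluding 1 (9.98% of all measured genes) and 0 were that much lower (10.7%), and none reached 1.5-fold (1.29% of all genes were that much higher and 2.53% lower). Complex IV had 10 of its 12 genes past 1.2-fold, complex I 15 of 38, complex III 3 of 9, complex V 4 of 16 and complex II 1 of 4. Of the 79, NDUFS1, the largest core subunit of complex I, had an interval below 1, with 3064, 2815 and 3669 reads in the 3 libraries, in order of time, and a day 3 log2 ratio of -0.11 [-0.18, -0.03]. As RNA was taken from bulk cultures, more cells of a kind and more RNA per cell cannot be told apart.

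In the day 5 library the median over the 79 genes was 0.22, against 0.01 over all measured genes, but the genes had spread apart, with 61 above day 0 (51.1% of all genes) and 18 below. Here 30 genes were at least 1.2-fold higher (9.4% of all genes) and 2, ATP5D and SDHA, at least 1.2-fold lower (7.82%). ATP5I, UQCRQ, NDUFA3, NDUFA1 and ATP5E were at least 1.5-fold higher, 5 of 79 genes beside 1.75% of all genes, and 0 were that much lower (1.28%). Against day 3, the day 5 library had a median of -0.02 over the 79 genes, with 37 above and 42 below (50% of all genes lay above). Of these, 7 genes were at least 1.2-fold higher (12.4% of all genes) and 13 lower (10.9%). Between the day 5 and day 3 libraries, 1 gene on each side passed 1.5-fold: ATP5I, higher (2.28% of all genes), and ATP5D, lower (0.969%). The interquartile range of the log2 ratios over the 79 genes was 0.17 to 0.30 at day 3, against 0.02 to 0.35 at day 5. Both comparisons share the day 0 library.

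**Figure D2:**
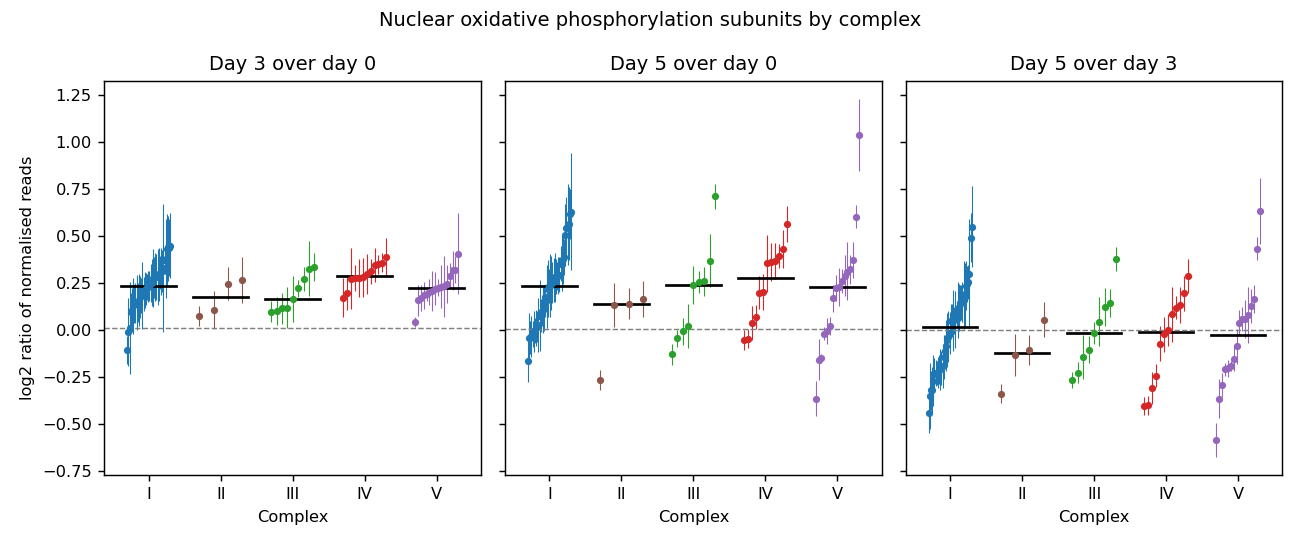
Log2 ratio of normalised reads of each measured subunit for day 3 over day 0, day 5 over day 0 and day 5 over day 3, by complex; points are genes in rank order with 95% counting intervals, bars are medians and the dashed line is the median of all measured genes. At day 3 nearly all genes sit between 0 and 0.45, and at day 5 they reach from -0.37 (ATP5D) to 1.04 (ATP5I).

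The promoters of ATP5I and UQCRQ are shown because these genes had the highest day 5 ratios, and that of UQCRC1, a large core subunit of complex III, because its day 5 library lay below day 0 and its promoter holds matches for NRF1 and YY1. UQCRC1 was picked after its values were seen. Each runs from 250 bases before to 50 bases after the RefSeq gene start on GRCh38.p14, 5′ to 3′ on the gene's strand. The windows are chr4:674227-674526, minus strand, for ATP5I (RefSeq symbol ATP5ME), chr5:132866392-132866691, plus strand, for UQCRQ and chr3:48609597-48609896, minus strand, for UQCRC1. Capitals mark matches, on either strand, to the NRF1 motif (GCGCA, any base, GCGC), the ETS motif (CCGGAAG) and the YY1 motif (AAGATGG followed by CGGC).
ATP5I: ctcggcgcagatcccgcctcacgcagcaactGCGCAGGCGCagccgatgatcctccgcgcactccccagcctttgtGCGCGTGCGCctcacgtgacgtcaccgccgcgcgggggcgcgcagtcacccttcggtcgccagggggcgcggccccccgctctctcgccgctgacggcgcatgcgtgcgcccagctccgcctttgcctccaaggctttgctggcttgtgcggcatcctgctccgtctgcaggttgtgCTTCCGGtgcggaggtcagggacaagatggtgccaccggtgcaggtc
UQCRQ: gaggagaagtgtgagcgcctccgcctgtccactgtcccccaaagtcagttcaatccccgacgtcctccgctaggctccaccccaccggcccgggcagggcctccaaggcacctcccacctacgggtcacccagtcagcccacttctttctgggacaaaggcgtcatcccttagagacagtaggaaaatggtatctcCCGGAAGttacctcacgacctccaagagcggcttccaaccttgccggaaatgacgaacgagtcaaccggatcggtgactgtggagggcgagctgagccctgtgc
UQCRC1: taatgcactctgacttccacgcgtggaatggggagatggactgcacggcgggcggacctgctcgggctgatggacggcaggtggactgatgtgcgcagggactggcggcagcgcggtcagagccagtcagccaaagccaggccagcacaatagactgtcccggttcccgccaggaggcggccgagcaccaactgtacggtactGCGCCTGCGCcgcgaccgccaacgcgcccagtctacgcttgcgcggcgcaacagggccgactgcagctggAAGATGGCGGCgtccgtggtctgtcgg

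The ATP5I window holds 2 NRF1 matches and 1 ETS match, the UQCRQ window 1 ETS match, and the UQCRC1 window 1 NRF1 and 1 YY1 match. RefSeq promoters were at hand for 67 of the 88 genes, and 33 of them (49.3%, against 15.5% of all promoters) held at least 1 of the 3 motifs. No 2 motifs overlapped in these promoters. The NRF1 motif was in 16 (23.9%, against 5.78% of all 35116 promoters of the same length), the ETS motif in 19 (28.4%, against 10.3%) and the YY1 motif in 4 (5.97%, against 0.849%). The set of all promoters was not limited to protein-coding genes, as the subunits are, nor matched for GC content. Median promoter GC content was 61% for the subunit genes and 58.7% for all promoters. By complex the NRF1 motif was in 6 of 32 promoters of complex I, 2 of 3 of complex II, 4 of 7 of complex III, 1 of 14 of complex IV and 3 of 11 of complex V. Of other promoter elements, TATAAA was in 10.4% of these promoters, against 11.5% of all, CCAAT in 34.3%, against 34.6%, and the SP1 motif GGGCGG in 58.2%, against 45.0%. Genes with at least 1 of the 3 had a median log2 ratio of 0.26 at day 3 and 0.17 at day 5 (32 measured genes), and those with none 0.23 at day 3 and 0.25 at day 5 (32 measured genes). The transcripts of 2 of these factors, chosen after their values were seen, had 591, 562 and 681 reads for NRF1 and 631, 557 and 891 reads for GABPA. The day 5 log2 ratios were -0.08 [-0.24, 0.09] for NRF1 and 0.22 [0.07, 0.37] for GABPA. GABPA overlaps the subunit gene ATP5J on the opposite strand. The labels do not say whether strand was used in counting, so the 2 genes may share reads.

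Complex I was measured with 38 of 39 genes, 7 of them core subunits of the matrix arm that carry the flavin and iron-sulfur clusters and 30 accessory subunits around the core. NDUFA4, grouped here by its name, is now known as a subunit of complex IV and had 1412, 1543 and 2095 reads. At day 3 the highest ratios were those of the accessory subunits NDUFB2, NDUFB11 and NDUFB3, with log2 ratios of 0.45 [0.27, 0.62], 0.44 [0.29, 0.59] and 0.44 [0.26, 0.61]. NDUFA3, an accessory subunit of the membrane arm, had 132, 164 and 248 reads in order of time, or 6.11, 7.68 and 9.45 CPM, and a day 5 log2 ratio of 0.63 [0.32, 0.94]. Its count is low, and the day 3 interval, -0.01 to 0.67, includes no difference. TFPT, which overlaps NDUFA3 on the opposite strand, had 203, 253 and 317 reads, and the labels do not say whether strand was used in counting. The same limit holds for other subunit genes. RNF113A, opposite NDUFA1, had 296, 413 and 406 reads, and VPS13B, opposite COX6C of complex IV, 1698, 1198 and 2100. NDUFA1, the small X-linked membrane subunit needed for assembly, had 703, 758 and 1309 reads, or 32.5, 35.5 and 49.9 CPM. Its day 5 library stood alone, with log2 ratios of 0.62 [0.48, 0.75] over day 0 and 0.49 [0.36, 0.62] over day 3. NDUFB1 was similar, with 278, 277 and 498 reads and a day 5 log2 ratio of 0.56 [0.35, 0.78]. The core subunit NDUFS7, which holds the last iron-sulfur cluster before ubiquinone, had 1259, 1508 and 1364 reads, or 58.3, 70.6 and 52.0 CPM. The day 3 library was the highest and the day 5 library the lowest, with log2 ratios of 0.28 [0.17, 0.39] for day 3 over day 0 and -0.17 [-0.28, -0.05] for day 5 over day 0. Over the complex, 16 of 38 genes were at least 1.2-fold higher at day 5 and 0 lower, and the summed reads of its 39 genes had a log2 ratio of 0.21 [0.20, 0.23] at day 3 and 0.16 [0.15, 0.18] at day 5. Uniquely placed reads were under 50% for NDUFA7 (4.55%), NDUFV2 (7.44%), NDUFC2 (8.30%), NDUFA13 (16.2%), NDUFB8 (19.4%) and NDUFA11 (30.7%), whose values are uncertain. At day 5 the log2 ratio changed sign in uniquely placed reads for 3 of these: NDUFA13 had 0.29 in all reads and -0.50 in uniquely placed reads, NDUFC2 0.28 and -0.25, and NDUFB8 0.23 and -0.17. At day 3 NDUFV2 had 0.14 in all reads and -0.40 in uniquely placed reads.

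Complex II, which also belongs to the tricarboxylic acid cycle and is wholly nuclear-encoded, has 4 genes and showed the smallest summed level. Its median level per gene at day 0, 123 TPM, was above the 100.0 TPM of complex I. At day 5, 0 of its 4 genes were at least 1.2-fold higher (9.4% of all measured genes) and 1 lower (7.82%). So few genes cannot be set apart from these shares. SDHA, the flavoprotein that oxidises succinate, had 5722, 5949 and 5779 reads, or 265, 279 and 220 CPM. Its log2 ratio was 0.07 [0.02, 0.13] for day 3 over day 0 and -0.27 [-0.32, -0.21] for day 5 over day 0, the day 5 library being the lowest of the 3. SDHB, the iron-sulfur subunit, had 1991, 2335 and 2665 reads with log2 ratios of 0.25 at day 3 and 0.14 at day 5. SDHC, a membrane anchor, had 1018, 1211 and 1355 reads with log2 ratios of 0.27 at day 3 and 0.13 at day 5. SDHD, the other anchor, had 1546, 1647 and 2103 reads, of which 43.3% were uniquely placed, and its day 5 log2 ratio was 0.16 in all reads and -0.27 in uniquely placed reads. The median of complex II at day 5 was 0.14, but -0.05 in uniquely placed reads.

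Complex III was measured with 9 of 10 genes. At day 5 its 4 redox and core subunits, a grouping made after the values were seen, had a median log2 ratio of -0.03, and the 5 small subunits 0.26, with no overlap between their ranges (-0.13 to 0.02 and 0.24 to 0.71). At day 3 the 4 redox and core subunits had a median of 0.13 and the 5 small ones of 0.27, and their ranges overlapped. UQCRQ, a small subunit beside cytochrome b, had 2694, 3357 and 5363 reads, or 125, 157 and 204 CPM. The day 0 library was lowest and the day 5 library highest, and the log2 ratio was 0.33 [0.26, 0.41] at day 3 and 0.71 [0.65, 0.78] at day 5. UQCR10 had 689, 854 and 1081 reads with log2 ratios of 0.33 at day 3 and 0.37 at day 5, and UQCRH, the hinge protein near cytochrome c1, 3852, 4593 and 5582 reads with 0.27 at day 3 and 0.25 at day 5. CYC1, cytochrome c1 itself, had 4873, 5151 and 5408 reads, or 226, 241 and 206 CPM, with log2 ratios of 0.10 [0.04, 0.15] at day 3 and -0.13 [-0.19, -0.07] at day 5. UQCRC1 had 7507, 8655 and 8837 reads, or 347, 405 and 337 CPM, with log2 ratios of 0.22 [0.18, 0.27] at day 3 and -0.05 [-0.09, -0.00086] at day 5.

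Complex IV had the highest median at day 3, 0.29, and each of its 12 measured genes had an interval above 1. So had every measured gene of complexes II, III and V, 71 of the 79 subunit genes and 3171 of all 12593 measured genes. COX4I1, the common form of the largest nuclear subunit, had 5341, 6770 and 6285 reads, or 247, 317 and 239 CPM. The day 3 library stood above both others, with log2 ratios of 0.36 [0.31, 0.41] for day 3 over day 0, -0.05 [-0.10, 0.01] for day 5 over day 0 and -0.40 [-0.45, -0.36] for day 5 over day 3. COX6A1 showed the same order, with 5448, 6858 and 6380 reads, or 252, 321 and 243 CPM, and log2 ratios of 0.35 [0.30, 0.40] at day 3 and -0.40 [-0.45, -0.35] for day 5 over day 3. COX6B1, which faces the intermembrane space, had 1805, 2267 and 2247 reads, a log2 ratio of 0.35 at day 3 and of 0.04 at day 5. Other small subunits had their highest level at day 5. COX6C had 1407, 1688 and 2529 reads, or 65.1, 79.0 and 96.4 CPM, and log2 ratios of 0.28 [0.18, 0.38] at day 3 and 0.56 [0.47, 0.66] at day 5. COX7B had 1279, 1555 and 2097 reads and a day 5 log2 ratio of 0.43 [0.33, 0.53], and COX7C 3035, 3632 and 4846 reads and 0.39 [0.33, 0.46]. COX7A2, the form found in most tissues, had log2 ratios of 0.39 at day 3 and 0.36 at day 5, and COX7A2L, which helps to join complexes III and IV into supercomplexes, 0.17 at day 3 and 0.36 at day 5. COX7B2 had log2 ratios of 0.27 [0.11, 0.43] at day 3 and 0.35 [0.20, 0.51] at day 5.

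Complex V held both ends of the day 5 range. ATP5I (ENSG00000169020, GRCh38 chromosome 4, positions 672436 to 674338, minus strand) encodes subunit e, a small membrane protein at the interface where ATP synthase dimers meet. It had 317, 415 and 791 reads in order of time, or 14.7, 19.4 and 30.1 CPM and 66.4, 76.1 and 135 TPM. The day 5 library was the highest of the 3, with log2 ratios of 0.40 [0.19, 0.62] for day 3 over day 0, 1.04 [0.85, 1.23] for day 5 over day 0 and 0.63 [0.46, 0.81] for day 5 over day 3. Of its reads 99.9% were uniquely placed, and 303, 382 and 769 spanned exon junctions. MYL5, which overlaps ATP5I on the opposite strand, had 245, 235 and 300 reads, and nothing in the labels says that strand was used in counting. ATP5D (chromosome 19, positions 1241746 to 1244826, plus strand), the delta subunit of the central stalk, had 1945, 2239 and 1832 reads, or 90.02, 105 and 69.8 CPM. The day 5 library was the lowest, with log2 ratios of 0.22 [0.13, 0.31] for day 3 over day 0, -0.37 [-0.46, -0.27] for day 5 over day 0 and -0.59 [-0.68, -0.50] for day 5 over day 3. ATP5E, the epsilon subunit, which sits beside delta in the same stalk, had 3197, 3558 and 5900 reads, or 148, 167 and 225 CPM. Its day 5 log2 ratio was 0.60 [0.54, 0.67], on the other side of day 0 from ATP5D.

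The other measured genes of complex V lay between these ends. ATP5B had 24256, 24667 and 26535 reads, the most of the 88 genes, with log2 ratios of 0.04 [0.02, 0.07] at day 3 and -0.15 [-0.18, -0.13] at day 5, and ATP5A1, the alpha subunit that forms the head with it, 0.19 at day 3 and -0.02 at day 5. The 3 genes ATP5G1, ATP5G2 and ATP5G3 encode the same mature c subunit of the rotor ring. Their levels were 104, 109 and 92.1 TPM for ATP5G1, 155, 174 and 152 TPM for ATP5G2 and 97.9, 103 and 116 TPM for ATP5G3. The day 5 log2 ratios were -0.16 [-0.26, -0.05] for ATP5G1, -0.01 [-0.07, 0.06] for ATP5G2 and 0.26 [0.19, 0.32] for ATP5G3, and ATP5G3 was above ATP5G1 in TPM in the day 5 library. The small membrane subunits f (ATP5J2) and g (ATP5L), which sit near subunit e, had day 5 log2 ratios of 0.32 [0.25, 0.40] and 0.17 [0.10, 0.24]. In the peripheral stalk ATP5J had 0.37, ATP5H 0.29, ATP5O 0.23 and ATP5F1 0.02 as day 5 log2 ratios. ATP5O had 35.1% uniquely placed reads and a day 5 log2 ratio of -0.12 in those. Summed over all 18 genes, the reads of complex V had a log2 ratio of 0.16 [0.14, 0.17] at day 3 and 0.04 [0.03, 0.06] at day 5, below the median of its genes, 0.23 at day 5.

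**Figure D3:**
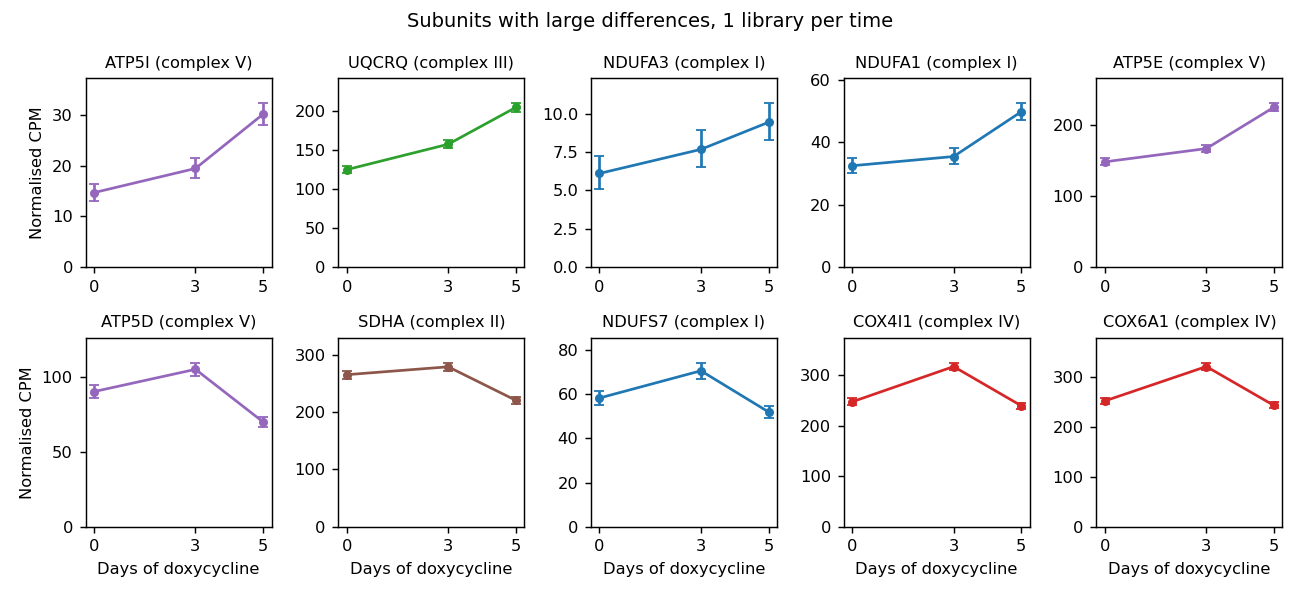
Normalised CPM against days of doxycycline for 10 subunits, 1 library per time, with 95% counting intervals; each panel has its own axis from 0. ATP5I, UQCRQ, NDUFA3, NDUFA1 and ATP5E are highest at day 5 (ATP5I at 30.1 CPM, against 14.7 CPM at day 0), and ATP5D, SDHA, NDUFS7, COX4I1 and COX6A1 are highest at day 3.

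Grouped in the same way by place in the complex, the catalytic and redox cores had day 5 medians near 0 and the outer subunits higher ones, but single genes lay on both sides. The 5 genes of the ATP synthase head and central stalk ran from -0.37 (ATP5D) to 0.60 (ATP5E) and the 7 core subunits of complex I from -0.17 (NDUFS7) to 0.39 (NDUFV2, with few uniquely placed reads), and 5 of the 30 accessory subunits lay below day 0. The median day 5 log2 ratio was 0.02 for the 7 core and 0.25 for the 30 accessory subunits of complex I, and -0.02 for the 5 subunits of the ATP synthase head and central stalk, -0.01 for the 3 c-ring genes, 0.26 for the 4 of the peripheral stalk and 0.32 for the 3 small membrane subunits. At day 3 the same medians were 0.22 for core and 0.26 for accessory subunits of complex I, and 0.18 for the head, 0.21 for the c ring, 0.24 for the peripheral stalk and 0.32 for the small membrane subunits of complex V. The core proteins are also the longer ones: median coding length was 792 bases in the core and 385.5 bases in the accessory subunits of complex I. Trends on coding length and GC content over the measured protein-coding genes were then removed. With this the day 5 medians of core and accessory subunits of complex I were both 0.13. In complex III the ranges of the redox and core and the small subunits then overlapped (-0.08 to 0.06 and -0.02 to 0.58), and the medians were -0.05 and 0.09. In complex V they were -0.04 for the head and central stalk and -0.04 for the c ring, 0.16 for the peripheral stalk and 0.19 for the small membrane subunits.

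**Figure D4:**
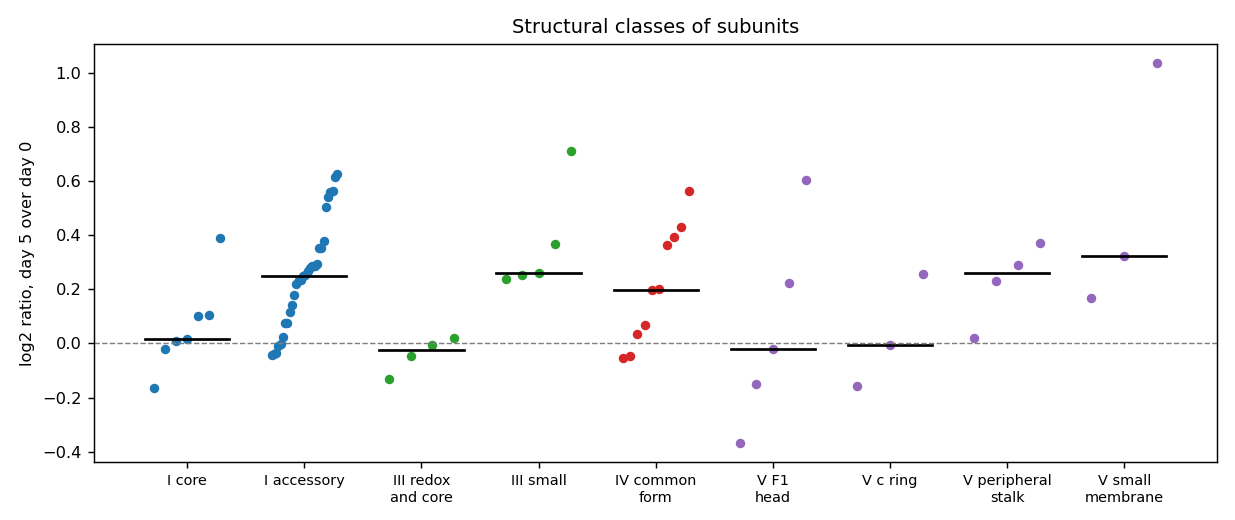
Log2 ratio of day 5 over day 0 for measured subunits of complexes I, III, IV and V grouped by place in the complex; points are genes and bars are medians. The medians are 0.02 for complex I core and 0.25 for complex I accessory subunits. The small subunits of complex III lie between 0.24 and 0.71, all above the redox and core subunits of that complex. That separation is lost with coding-length and GC trends removed and kept with exon-length and GC trends removed.

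Oxidative phosphorylation subunits are short proteins, with a median coding length of 423 bases over the 79 genes, against 1407 bases over 11569 measured protein-coding genes, and short genes in general had higher ratios. Among the 19 subunits of up to 300 bases the median log2 ratio was 0.28 at day 3 and 0.39 at day 5, against 0.21 at day 3 and 0.22 at day 5 over the 261 protein-coding genes of that length, which include them. At day 5, 15 of the 19 (78.9%) and 40.2% of the 261 genes were at least 1.2-fold higher. From 300 to 600 bases the day 5 medians were 0.22 for 39 subunits and 0.09 for 1244 genes, from 600 to 1200 bases 0.02 for 13 subunits and 0.03 for 3216 genes, and above 1200 bases -0.02 for 8 subunits and -0.03 for 6848 genes. At day 3 the subunits lay above the genes of their length in every bin, with 0.25 against 0.17, 0.21 against 0.09 and 0.14 against -0.04 in the 3 longer bins. Across the 79 subunits the Spearman correlation of ratio with coding length was -0.34 at day 3 and -0.65 at day 5. Across all genes with a coding length it was -0.44 at day 3 and -0.24 at day 5. With GC content the correlation was 0.21 at day 3 and -0.33 at day 5 across the subunits, and 0.16 at day 3 and -0.43 at day 5 across all genes. The points share libraries and are not independent, and no p is given. Removing trends on coding length and GC content, an alternative chosen after seeing the data, left medians of 0.09 at day 3 and 0.08 at day 5, with 0 genes at least 1.2-fold higher at day 3 and 13 at day 5. The authors' TPM gave a day 3 median of 0.11 with 5 such genes, while the median of all genes lay at -0.08. Whether the part related to length and GC content comes from the cells or from the libraries was not tested.

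**Figure D5:**
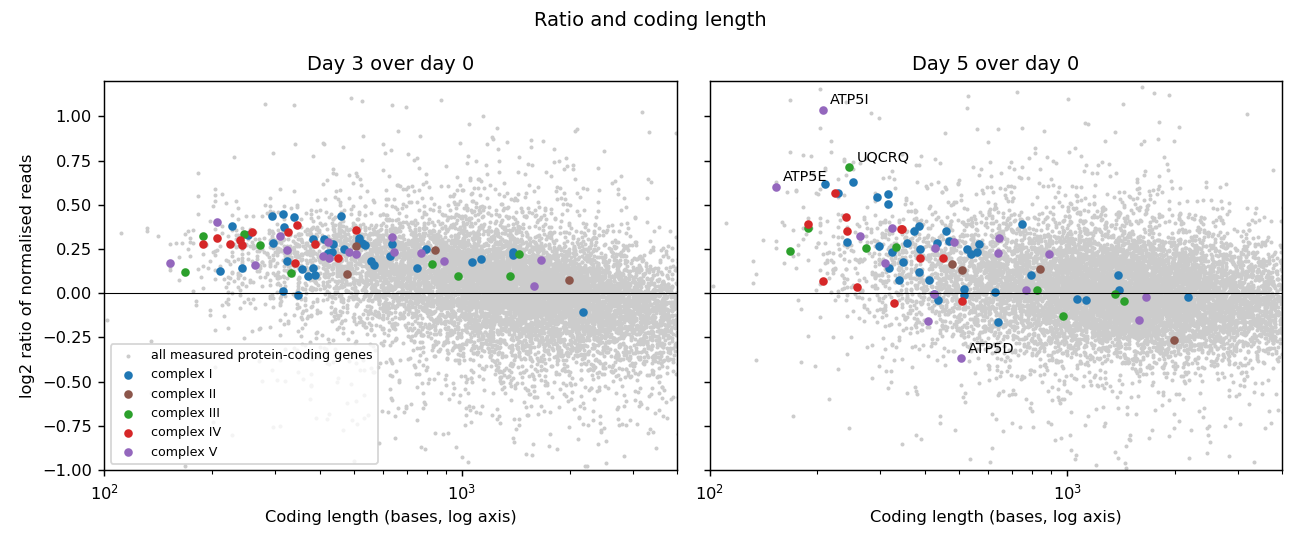
Log2 ratio against coding length (bases, log axis) for day 3 over day 0 and day 5 over day 0; grey points are all measured protein-coding genes within the axes, coloured points the subunits by complex. At day 5 the subunits fall with length, from a median of 0.39 up to 300 bases to -0.02 above 1200 bases.

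Partners of the complexes were described with lists of other genes, counted by the same 1.2-fold rule at day 5 against day 0, by which 9.4% of all measured genes were higher and 7.82% lower. Of 24 assembly factors of complex IV 7 were higher and 0 lower, with PET100 at a log2 ratio of 0.86 [0.59, 1.14] (157, 150 and 347 reads) and COA6 at 0.76 [0.53, 0.99] (234, 309 and 482 reads). Of 16 for complex I 5 were higher and 0 lower, and of 4 for complex II 1 was higher and 0 lower. Of 6 for complex III 1 was higher, LYRM7 at 0.36, and 0 lower. Of 4 for complex V, TMEM70 was higher at 0.31 and ATPAF1, a chaperone of the beta subunit, lower at -0.30. FMC1, another of the 4, had 80, 166 and 129 reads and log2 ratios of 1.07 [0.68, 1.47] at day 3 and 0.41 [-0.0049, 0.83] at day 5. The 3 complex V proteins outside the naming rule, USMG5, C14orf2 and the inhibitor ATPIF1, were higher with 0.58, 0.58 and 0.49. USMG5 and C14orf2 are small membrane proteins of the ATP synthase, as is ATP5I. Of the 13 subunits encoded in mitochondrial DNA 3 were higher and 0 lower at day 5, and 0 were higher and 3 lower at day 3 (9.98% and 10.7% of all genes), when their median was -0.17, below day 0. MT-ATP8, a short subunit of complex V, had 898, 768 and 2433 reads and a day 5 log2 ratio of 1.16 [1.05, 1.27]. It overlaps MT-ATP6 on the same strand, so its reads are uncertain. MT-ND3 of complex I had 2769, 2687 and 5810 reads and a day 5 log2 ratio of 0.79 [0.72, 0.85]. Of 13 tricarboxylic acid cycle genes 0 were higher and 0 lower at day 5 by this rule, the same held for 7 nucleotide and phosphate carriers, and of 15 electron carrier genes 0 were higher and 2 lower, ETFB at -0.33 and COQ8B at -0.29. Of 12 regulators of subunit and mitochondrial transcription TFB2M, a mitochondrial transcription factor, was higher at 0.51, and the coactivator PPARGC1A had 42, 68 and 74 reads. The day 3 excess above day 0 was not particular to the subunits. Above day 0 lay 14 of 16 complex I assembly factors (median 0.18), 20 of 24 for complex IV (0.13) and 7 of 7 nucleotide and phosphate carriers (0.19). So did 13 of 15 electron carrier genes (0.15) and 10 of 13 tricarboxylic acid cycle genes (0.14), but 5 of 12 regulators (-0.05), beside 52.0% of all measured genes.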

How the data were processed

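Libraries were made from total RNA with a SMARTer mRNA-seq kit, per the labels' protocols. Per the file headers, the authors deposited read counts per gene (unique, total, exon, junction and intron reads), a TPM value and the exon length. No aligner or counter is given in the sources used here. Per the submitters' processing notes the genome was mm10 (mouse), but identifiers are human: of 58243, 57980 are in GENCODE 29, and 97.6% of those match it in position on GRCh38, which is therefore used. A whole-series table with 3 sample columns was left aside.

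The deposited total counts were scaled with TMM (factors 1.01, 0.968 and 1.02; edgeR 4.0.16, R 4.3.3). Log2 ratios carry a prior count of 0.5. Clopper-Pearson 95% intervals of each ratio were computed conditional on the summed count. No molecular identifiers are mentioned in the labels, so the intervals miss all error but counting. With 1 library per time no test was made. Calls were made at 1.2-fold and 1.5-fold with an interval excluding 1, over the 12593 measured genes. Uniquely placed reads were 89.2%, 88.6% and 87.6% of the total.

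The members, lists and comparisons were chosen with earlier results of these data known. The naming rule took ATP5I, paralog sets, members under the read minimum, per complex and comparison up to 3 highest and 2 lowest ratios whose interval excluded 1, and the highest and lowest TPM at day 0, and up to 2 at each end of every other list. Other genes are named for their place in a complex, after their values were seen. Coding length and GC content are from GENCODE 29 transcripts, promoters from RefSeq (GRCh38.p14). The alternatives were no TMM, DESeq2 1.42.0 scaling, the authors' TPM plus 0.5, unique or exon reads, other prior counts and minimums, and lowess removal of length and GC trends (span 0.3, 3 rounds). The log2 ratios, intervals and 1.2-fold calls were tested on simulated counts for day 3 over day 0. These counts held counting error alone (Poisson), for which the intervals are exact, so error between libraries was not tested. Scaling, trend removal and the motif search had no such test. The work used Python 3.11.15, scipy 1.17.1, statsmodels 0.14.6, pandas 2.3.3, numpy 2.4.6 and matplotlib 3.10.9.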

Additional observations from a re-analysis of the deposited data

Results flagged for a closer look

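Of the 79 measured genes 8 had a day 3 interval above day 0 and a day 5 interval below it, which is 10.1% of them. None of the 79 had the reverse order. Of all measured genes 6.23% had intervals on opposite sides of day 0 in either order, and their share in the order of these 8 was not counted. Both comparisons share the day 0 library, and the difference between times was not tested, since each time had 1 library.

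In the head and rotor of complex V, ATP5D stood at a log2 ratio of -0.59 for day 5 over day 3, ATP5G1 at -0.37 and ATP5B at -0.19. In complex I the core subunit NDUFS7 was at -0.44. In complex II SDHA was at -0.34, in complex III UQCRC1 was at -0.27 and CYC1 at -0.23, and in complex IV COX6A1 was at -0.40. Of the 8, COX6A1 and UQCRC1 were nearest to day 0 at day 5, with upper interval bounds of -0.00050 and -0.00086. The pattern was lost under at least 1 alternative for 4 of the 8. UQCRC1 was above day 0 at day 5 with exon-length (0.034) or coding-length (0.057) and GC trends removed. At day 3 the authors' TPM put ATP5B (-0.092), SDHA (-0.059) and CYC1 (-0.039) below day 0, as did removal of exon-length and GC trends for ATP5B (-0.092) and CYC1 (-0.070), removal of coding-length and GC trends for CYC1 (-0.034) and scaling without TMM for ATP5B (-0.026).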

How the results depend on the processing

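No paired analysis was possible because each time had 1 library, and no library could be left out of its group for the same reason. DESeq2 size factors, TMM without mitochondrial and the 20 most abundant genes, a prior count of 5 and read minimums of 10 and 200 changed little. Under these no named gene whose interval excluded 1 changed direction, and no count of members moved by more than 1.5-fold. No median left the span from the median lower to the median upper bound of its genes' intervals, which is wider than a counting interval of the median itself. Removal of coding-length trends was chosen after seeing the data. Except where a change follows from how an alternative is built, the cause was not tested.

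Scaling without TMM moves every gene alike, by as much as the median of all measured genes, which was -0.057 in place of 0.011 at day 3 and 0.075 in place of 0.000092 for day 5 over day 3, and the median of the subunit genes relative to it stayed at 0.22 at day 3. Without TMM, 12 genes in place of 33 were at least 1.2-fold higher at day 3 than at day 0, ATP5B was at -0.026, and 1 gene in place of 2 was at least 1.2-fold lower at day 5. For day 5 over day 3, the complex III median was 0.059, and 12 genes were at least 1.2-fold higher and 7 lower, in place of 7 and 13. At 1.5-fold these were 2 and 0, in place of 1 and 1.

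The authors' TPM gave day 3 medians of 0.11 for the 79 subunit genes, 0.12 for complex I, 0.047 for complex II, 0.18 for complex IV and 0.087 for complex V, with 5 genes at least 1.2-fold higher. The day 3 log2 ratios of ATP5B (-0.092), CYC1 (-0.039), SDHA (-0.059), SDHD (-0.032), UQCR11 (-0.016), UQCRB (-0.018) and UQCRC2 (-0.020) turned negative. Day 5 over day 3 medians were 0.12, -0.012, 0.10, 0.087 and 0.073 for complexes I to V, with 16 genes higher and 4 lower at 1.2-fold, and 2 higher and 0 lower at 1.5-fold.

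With uniquely placed reads the day 5 median of complex II was -0.047, and NDUFA13 (-0.50), SDHD (-0.27), NDUFC2 (-0.25), NDUFB8 (-0.17) and ATP5O (-0.12) turned negative at day 5, and NDUFV2 (-0.40) at day 3. Then 1 gene was at least 1.5-fold higher at day 3 and 5 were 1.2-fold lower at day 5. For day 5 over day 3 the complex II median was -0.24, NDUFC2 was at -0.28, and 2 genes were 1.5-fold higher and 3 lower. With the genes that have at least 90% uniquely placed reads the complex II median was -0.063 for day 5 over day 0 and -0.22 for day 5 over day 3, and the complex V median -0.15 for day 5 over day 3. With exon reads 0 genes were 1.5-fold lower for day 5 over day 3. With no read minimum the day 5 median of complex III was 0.13.

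With exon-length and GC trends removed the complex IV median at day 3 was 0.19 and 9 genes were 1.2-fold higher. ATP5B (-0.092), CYC1 (-0.070), UQCR11 (-0.055) and NDUFS1 (0.051) changed direction at day 3. At day 5 the medians of complexes III, IV and V were 0.11, 0.14 and 0.13, 1 gene was 1.2-fold lower and 3 were 1.5-fold higher, and UQCRC1 was at 0.034. For day 5 over day 3, CYC1 (0.0026), NDUFS1 (-0.10) and UQCRB (-0.11) changed direction and 0 genes were 1.5-fold lower.

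With coding-length and GC trends removed the day 3 medians were 0.091 for the 79 subunit genes, 0.087 for complex I, 0.099 for complex IV and 0.096 for complex V, and 0 genes were 1.2-fold higher. ATP5E (-0.016), ATP5J2 (-0.054), CYC1 (-0.034), NDUFA4 (-0.023), NDUFC2 (-0.025), SDHD (-0.041), UQCR11 (-0.15) and UQCRB (-0.015) turned negative. At day 5 the medians were 0.083 for the 79 subunit genes, 0.024 for complex II, 0.057 for complex III, 0.098 for complex IV and 0.094 for complex V, with 13 genes 1.2-fold higher, 1 lower and 1 gene 1.5-fold higher. ATP5L (-0.070), COX8A (-0.056), NDUFA4 (-0.0091), SDHC (-0.013), UQCRB (-0.018) and UQCRC1 (0.057) changed direction. For day 5 over day 3, COX7C (-0.039), CYC1 (0.00059), NDUFA4 (-0.0064), NDUFS1 (-0.023) and UQCRB (-0.018) changed direction, 7 genes were 1.2-fold lower and 0 were 1.5-fold lower.

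Where the interval had to exclude the fold itself, 6 genes were 1.2-fold higher at day 3, and 16 were 1.2-fold higher, 1 lower and 2 genes 1.5-fold higher at day 5. For day 5 over day 3, 5 genes were 1.2-fold lower, and 0 higher and 0 lower at 1.5-fold. The lowest mean reads were those of NDUFA3 (181), NDUFB1 (351), NDUFC1 (453), NDUFA7 (491) and ATP5I (508).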
